A study of Mus musculus with 46 samples.

Results

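The 37 genes encoded by mouse mitochondrial DNA were followed through every library of a study of Falcor, a long noncoding RNA of nuclear speckles, which are bodies of the nucleus rich in splicing factors. The members are all rows whose name starts with mt-, and they make up 37 of 55774 rows in 3 of the tables and 37 of 56775 rows in the other one. They comprise 13 mRNAs for subunits of the respiratory chain and ATP synthase, 2 ribosomal RNAs and 22 transfer RNAs. Of the mRNAs, 12 are read from the heavy strand's promoter and 1, mt-Nd6, from the light strand's promoter. Of the tRNAs, 14 are counted with the heavy-strand genes and 8 with mt-Nd6, which gives 28 heavy-strand and 9 light-strand members.

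Mitochondrial DNA is a small circle that is transcribed along nearly its whole length from both strands by the polymerase POLRMT. The long precursors are cut at the tRNAs that punctuate them, and the abundance of each mRNA after that is set largely by its stability, for which the LRPPRC and SLIRP proteins are the best known factors of the heavy-strand mRNAs. Hepatocytes are rich in mitochondria, and the mt- mRNAs are therefore among the abundant RNAs of liver.

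The study comprised 46 RNA sequencing libraries in 13 groups. Livers labelled Falcor KO numbered 4 on the diet labelled NCD and 6 on the diet labelled HFD, against 4 and 5 livers labelled Ctrl. AML12 cells, a mouse hepatocyte line, carried an inducible hairpin labelled shLinc or shCtrl and were sampled without doxycycline (NoDox), with it (DoxPlus) and in a state labelled Restored (DoxMinus), in 6 groups of 3 libraries. In a further experiment AML12 cells carried a conventional hairpin labelled shFalcor, shZC3H11A (against a zinc finger protein linked to mRNA export) or shCtrl, with 3 libraries each. The labels give no allele, Cre, age, diet composition, dose, time or number of clones and leave the origin of the replicates unstated, so a p-value here compares a difference with the scatter among libraries, which may be technical.

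In all 4 experiments the libraries were described as depleted of ribosomal RNA and strand-specific, so mt-Rnr1 and mt-Rnr2 values are what the depletion left. The tables still differed in the noncoding RNA Rn7s1. Its deposited values were 18 to 107 in the inducible lines, 85258 to 166673 in NCD livers and 33028 to 123616 in HFD livers. The reason was not tested. The 2 liver tables and the inducible table hold whole-number values that sum to 833910 to 975752 per library, of unstated unit, and these were treated as scores and rescaled between libraries. The conventional table holds counts, 4474760 to 8837581 per library, given below as CPM after library scaling. Falcor was listed at 0 in the 4 NCD KO livers, against 79.7, 118, 125 and 141 in Ctrl livers. In shLinc cells, taken as those with the Falcor hairpin, it had 11.1, 8.02 and 9.04 in NoDox and 2.1, 2.12 and 3.14 in DoxPlus libraries, and in shCtrl cells 4.38, 6.01 and 5.04 in NoDox and 5.26, 4.2 and 5.23 in DoxPlus libraries, and in the conventional lines 1.16, 0.831 and 0.558 CPM in shFalcor cells, 0.55, 0.643 and 1.08 CPM in shZC3H11A cells and 4.4, 1.96 and 3.93 CPM in shCtrl cells. Of 8 hepatocyte markers (albumin, transthyretin and others), all had values in liver, where their summed value was 46900 to 60540 in NCD KO and 41230 to 51460 in NCD Ctrl livers. In the inducible AML12 lines 1 of the 8 was at 0 in every library and the sum was 768 to 2252.

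How well a row can be read depends on sequence. Copies of mitochondrial DNA in the nuclear genome carry rows of their own in these tables, and 7 of them match nearly the whole of their mitochondrial counterpart or a long stretch of it. Gm28661 on chromosome 1 is identical to mt-Co2, which encodes a cytochrome c oxidase subunit, over 681 of 684 bases, and the first 60 bases of both are printed to show that a read from there matches either row (sequences from GENCODE vM21 transcripts on GRCm38).
mt-Co2, chrM:7013-7072, plus strand: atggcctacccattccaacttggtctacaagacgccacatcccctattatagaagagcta
Gm28661, chr1:24615506-24615565, minus strand: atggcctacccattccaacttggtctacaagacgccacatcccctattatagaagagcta
Likewise Gm28437 is identical to mt-Co3 over 783 bases, Gm10925 to mt-Atp6 over 678 and Gm10222 to mt-Nd4l over 294, while Gm28438 matches mt-Nd3 at 344 of 345 aligned bases. The share of a gene's 31-base words found in other transcripts was 100% for mt-Co2, 99.87% for mt-Co3, 99.54% for mt-Atp6, 98.88% for mt-Nd4l and 98.11% for mt-Nd3. It was 63.89% for mt-Co1 and 62.76% for mt-Nd4, and at most 16.83% for mt-Nd5, mt-Nd2, mt-Atp8, mt-Nd6, mt-Cytb, mt-Nd1 and the 2 rRNAs, so these are the rows with the clearest identity.

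Neighbouring members also overlap each other. The ATP synthase genes mt-Atp8 (chrM:7766-7969) and mt-Atp6 (chrM:7927-8607) are carried on 1 mRNA, as are the complex I genes mt-Nd4l (chrM:9877-10173) and mt-Nd4 (chrM:10167-11544). The ends of mt-Nd5 (chrM:11742-13565, heavy-strand mRNA) and mt-Nd6 (chrM:13552-14070, minus strand), both of complex I, face each other. The stretches around the 3 overlaps are shown with the shared bases in capitals, 43 for the first, 7 for the second and 14 for the third, and 25 bases on each side.
mt-Atp8 and mt-Atp6, chrM:7902-7994, plus strand: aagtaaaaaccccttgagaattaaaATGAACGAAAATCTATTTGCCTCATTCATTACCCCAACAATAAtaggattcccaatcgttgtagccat
mt-Nd4l and mt-Nd4, chrM:10142-10198, plus strand: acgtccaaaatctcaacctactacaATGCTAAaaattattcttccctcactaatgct
mt-Nd5 and mt-Nd6, chrM:13527-13590, plus strand: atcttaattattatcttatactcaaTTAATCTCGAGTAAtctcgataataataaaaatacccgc
Whether the authors' counting used the strand is not given in the sources used here. If it did not, reads from the antisense of mt-Nd6, which the heavy-strand precursor also carries, cannot be told apart from mt-Nd6 itself.

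The split between a mitochondrial row and its nuclear copy differed between tables. In NCD libraries the copy Gm28661 held 52.1 to 86.3% of the mt-Co2 pair, and in HFD libraries 97.0 to 99.95%. Its share was 91.2 to 98.2% in the conventional lines but 0.353 to 23.8% in the inducible ones. Gm28437 held 61.8 to 85.3% of the mt-Co3 pair in NCD, 77.1 to 85.3% in HFD and 56.8 to 78.3% in the conventional lines, and it was listed at 0 in the inducible lines. Gm10925 held 29.7 to 61.2% of the mt-Atp6 pair in the conventional lines and at most 6.27% in any library of the other tables. Gm10222 was at 0 throughout, so mt-Nd4l kept the whole of its pair. The row mt-Co2 by itself thus had 0.982, 22.7, 16.7, 24.1, 28.3 and 29.7 in HFD KO and 71.3, 62.5, 16.5, 2.22 and 17.6 in HFD Ctrl livers, beside 1804, 2122, 1745, 1919, 2052 and 1947 and 2302, 2158, 2244, 2376 and 2173 for Gm28661. The results for mt-Co2, mt-Co3, mt-Atp6 and mt-Nd3 are therefore uncertain, and the value with the copies added to the mitochondrial row is given where that changes a call, and for some of the other values whose sign it turns.

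**Figure D1:**
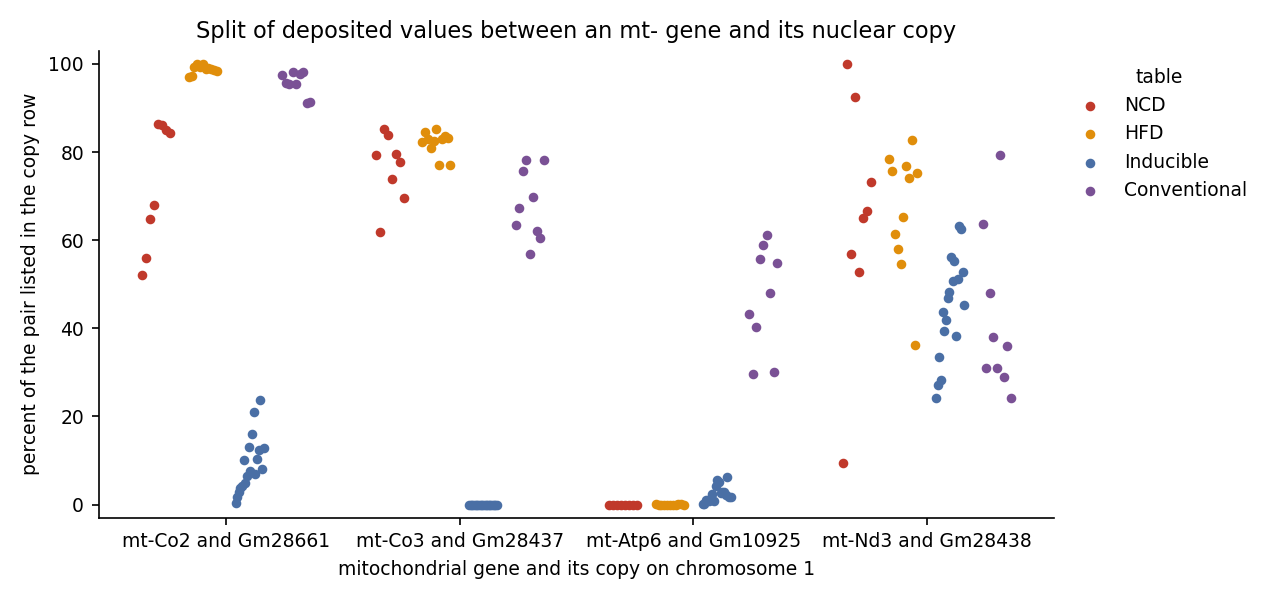
Percent of each gene pair held by the nuclear copy's row (vertical axis) in every library (points), for mt-Co2, mt-Co3, mt-Atp6 and mt-Nd3 in the 4 tables. The mt-Co2 pair sits at 97.0 to 99.95% in HFD livers and at 0.353 to 23.8% in the inducible lines, and in NCD the 4 KO livers (84.3 to 86.3%) lie above the 4 Ctrl livers (52.1 to 68.1%).

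With copies added, the composition of the 13 mRNAs separated the tables. Counts of the conventional table were divided by gene length. The scores of the other tables were not, since they were taken as already scaled for length, which no source states. In NCD livers mt-Co1, a core subunit of cytochrome c oxidase, led with 35.4% of the summed level in KO and 36.8% in Ctrl livers. The light-strand mRNA mt-Nd6, a membrane subunit of complex I, took 4.99% (SD 0.755, n = 4) in NCD KO and 19.6% (SD 8.60, n = 4) in NCD Ctrl livers, rank 6 and rank 2 of 13. In HFD livers it took 1.20% in KO (n = 6) and 1.21% in Ctrl (n = 5), in the conventional lines 0.397 to 0.571% and in the inducible lines 0.169 to 0.337%. The high level of mt-Nd6 was thus a property of the NCD libraries of both genotypes, and of Ctrl more than KO. The shares in the liver and inducible tables depend on that assumption about length. These are levels within a table, whose units differ, and levels were not tested across tables.

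In NCD livers, heavy-strand mRNAs were higher in Falcor KO and the light-strand mRNA mt-Nd6 was lower. Of 12 heavy-strand mRNAs, 6 rose and none fell, and mt-Nd6 fell (limma, adjusted p below 0.05), in a comparison that called 5.98% of all 9536 genes tested. The median log2 fold change of the 12 was 1.23, against 0.04 over all genes tested. Of the 12, 9 had groups that did not overlap, a share that was not computed over all genes. The counts of calls depended on the processing. The number that rose was 10 without rescaling between libraries, which shifted the median of all genes by 0.17, 3 with median-of-ratios scaling and 1 without the filter on low values, and mt-Nd6 was not called without the filter (adjusted p = 0.0636) or with the rest-of-library scaling (adjusted p = 0.05002). In bulk liver, fewer cells of a type and less RNA per cell cannot be told apart.

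Values of mt-Nd6 were 1426, 1512, 1242 and 1726 in KO livers, against 4310.3, 4597, 3005 and 1949.9 in Ctrl livers. The groups did not overlap, and the spread lay in the Ctrl livers, of which Ctrl-5 was close to KO. The log2 fold change was -1.16 (SE 0.26, adjusted p = 0.0442).

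Among the heavy-strand genes, mt-Atp8, a small subunit of ATP synthase, had the highest fold change. It had 629, 455, 461 and 2224 in KO livers, against 72.8, 49.4, 83.1 and 235 in Ctrl livers, a log2 fold change of 2.99 (SE 0.62, adjusted p = 0.0421). Every KO liver was above every Ctrl liver, although KO-5 was several times above the other KO livers and Ctrl-5 above the other Ctrl livers. Its bicistronic partner mt-Atp6, the proton channel subunit, had 1855, 1581, 1466 and 3123 in KO and 808, 669, 855 and 1226 in Ctrl livers, with a log2 fold change of 1.14 (SE 0.27, adjusted p = 0.0463) and groups that did not overlap.

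Of the 7 complex I mRNAs, which encode its proton-pumping membrane arm, 3 heavy-strand ones rose. The subunit mt-Nd2 had 415, 352, 368 and 717 in KO and 167, 157, 189.7 and 254 in Ctrl livers, a log2 fold change of 1.23 (SE 0.24, adjusted p = 0.0390). The overlapping pair moved alike, with log2 fold changes of 1.27 (SE 0.30, adjusted p = 0.0470) for mt-Nd4 and 1.40 (SE 0.30, adjusted p = 0.0440) for mt-Nd4l. The groups of all 3 were apart, and KO-5 was the highest liver for each. Below the threshold, mt-Nd1 had a log2 fold change of 0.93 (adjusted p = 0.0534), mt-Nd5 of 0.75 (adjusted p = 0.0545) and mt-Nd3 of 2.44 (adjusted p = 0.280). The last had 164, 113, 95.6 and 137 in KO livers and 151, 0, 86.3 and 21 in Ctrl livers, where Ctrl-3 was listed at 0, and with its copy added the value was 0.76.

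The complex III mRNA mt-Cytb, cytochrome b, also rose. It had 1256, 1143, 1071 and 2262 in KO livers, against 549.6, 402, 584 and 875 in Ctrl livers, without overlap, and a log2 fold change of 1.23 (SE 0.30, adjusted p = 0.0499). None of the cytochrome c oxidase mRNAs was called in its own row. The abundant mt-Co1 had 10139, 9793, 8929 and 13589 in KO and 6044, 5870.1, 6743 and 8701 in Ctrl livers (0.63 on the log2 scale, adjusted p = 0.0574). For mt-Co3 the value was 1.30 (adjusted p = 0.0622). For mt-Co2 the direction depended on the copy: the row itself had -0.45 (adjusted p = 0.244), Gm28661 had 1.499 (adjusted p = 0.0405), and both together had 0.99 (adjusted p = 0.0558).

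The rRNAs stayed under the threshold. The large rRNA mt-Rnr2 had 498, 415, 358 and 1158 in KO livers and 216, 157, 215 and 299.7 in Ctrl livers (log2 fold change 1.32, adjusted p = 0.0663), and the small rRNA mt-Rnr1 had 67.8, 33.4, 46.9 and 77.5 in KO livers and 46.7, 32.9, 27.7 and 31.4 in Ctrl livers (0.64, adjusted p = 0.159). Of the 22 tRNAs, 5 were above 0 in some NCD library and mt-Tp, a light-strand tRNA, alone had a mean of at least 3 (1.13, adjusted p = 0.429). Across the 16 members tested, 13 had an unadjusted p below 0.05, of which 12 were higher in KO and mt-Nd6 was lower. The share of all genes at that threshold was not computed.

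**Figure D2:**
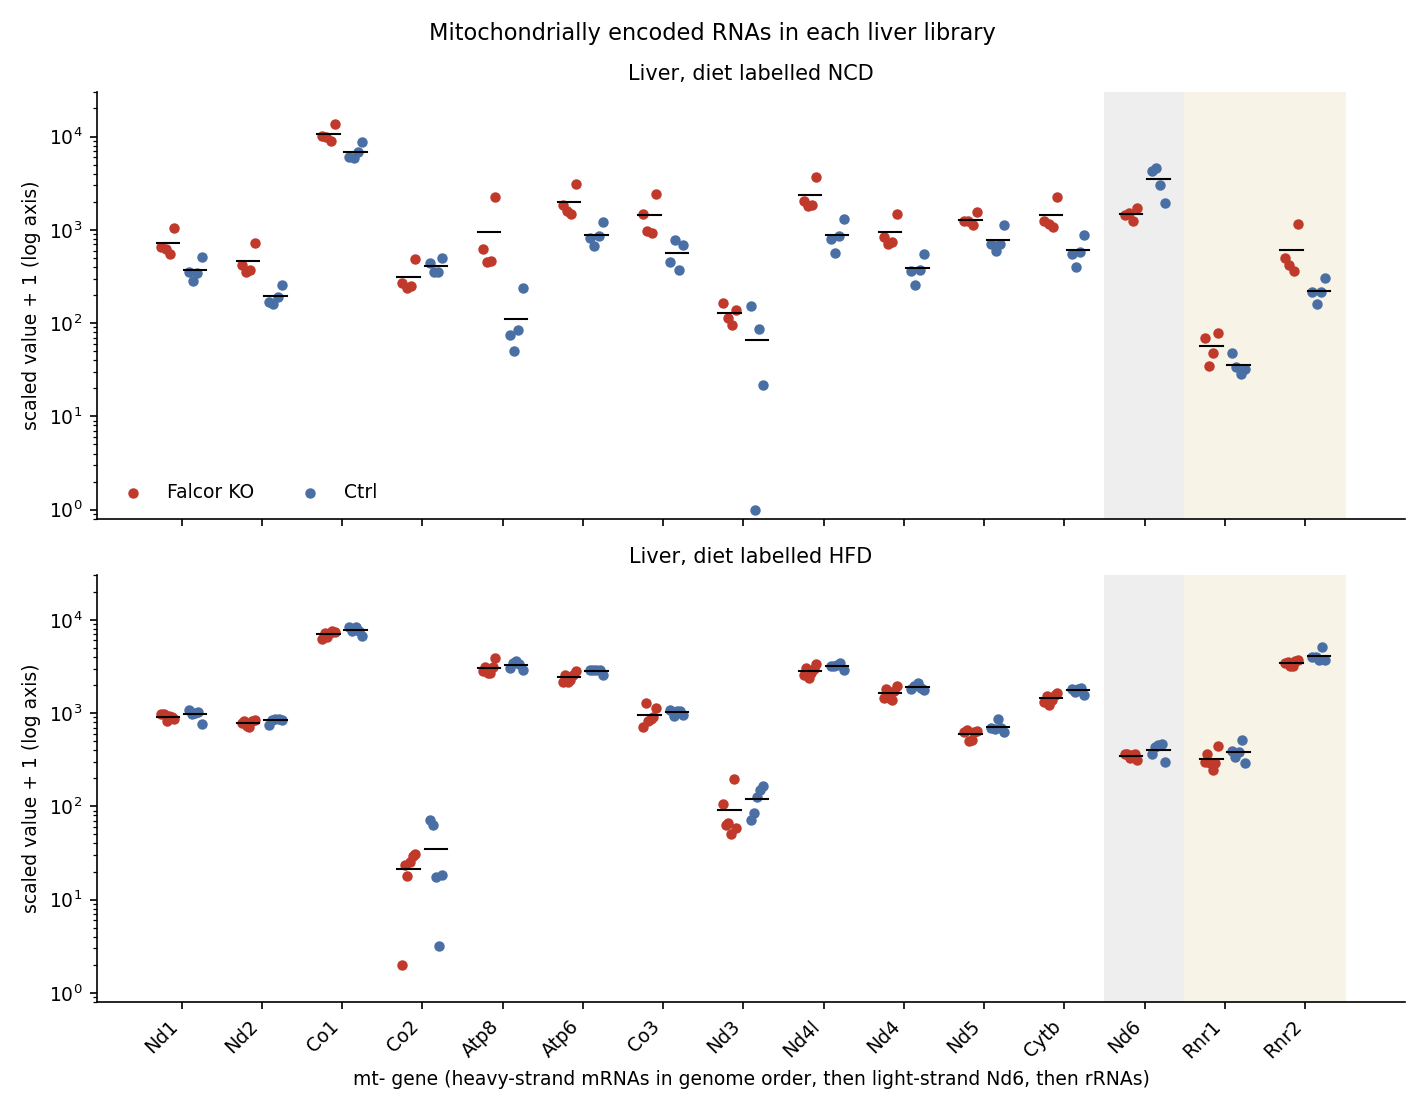
Rescaled value plus 1 (logarithmic axis) of the 13 mRNAs and 2 rRNAs in each liver, with NCD and HFD in separate panels. Points are libraries, KO in red left of Ctrl in blue, and the bar is the group mean. In NCD the 4 KO livers lie above the 4 Ctrl livers for mt-Atp8 and below them for mt-Nd6, and in HFD the groups overlap for every gene shown.

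The 2 strands were also set against each other within each library. The log2 ratio of mt-Nd6 to the geometric mean of the 12 heavy-strand mRNAs was 0.58 ± 0.32 in NCD KO livers and 2.98 ± 1.01 in NCD Ctrl livers (SD, n = 4 each). The groups did not overlap (0.14 to 0.91 against 1.73 to 4.16). On a linear scale mt-Nd6 was 1.10 to 1.88 times this geometric mean in KO livers and 3.31 to 17.9 times it in Ctrl livers. The size of these ratios takes the scores as already scaled for length, which no source states. Low rows pull a geometric mean below the arithmetic mean, against which the ratios would be smaller. The highest ratio was that of Ctrl-3, where mt-Nd3 was listed at 0. With mt-Nd5, its neighbour, as the only denominator the mean log2 ratio was 0.20 in KO and 2.11 in Ctrl livers. The ratio is a description of chosen members and was not tested.

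**Figure D3:**
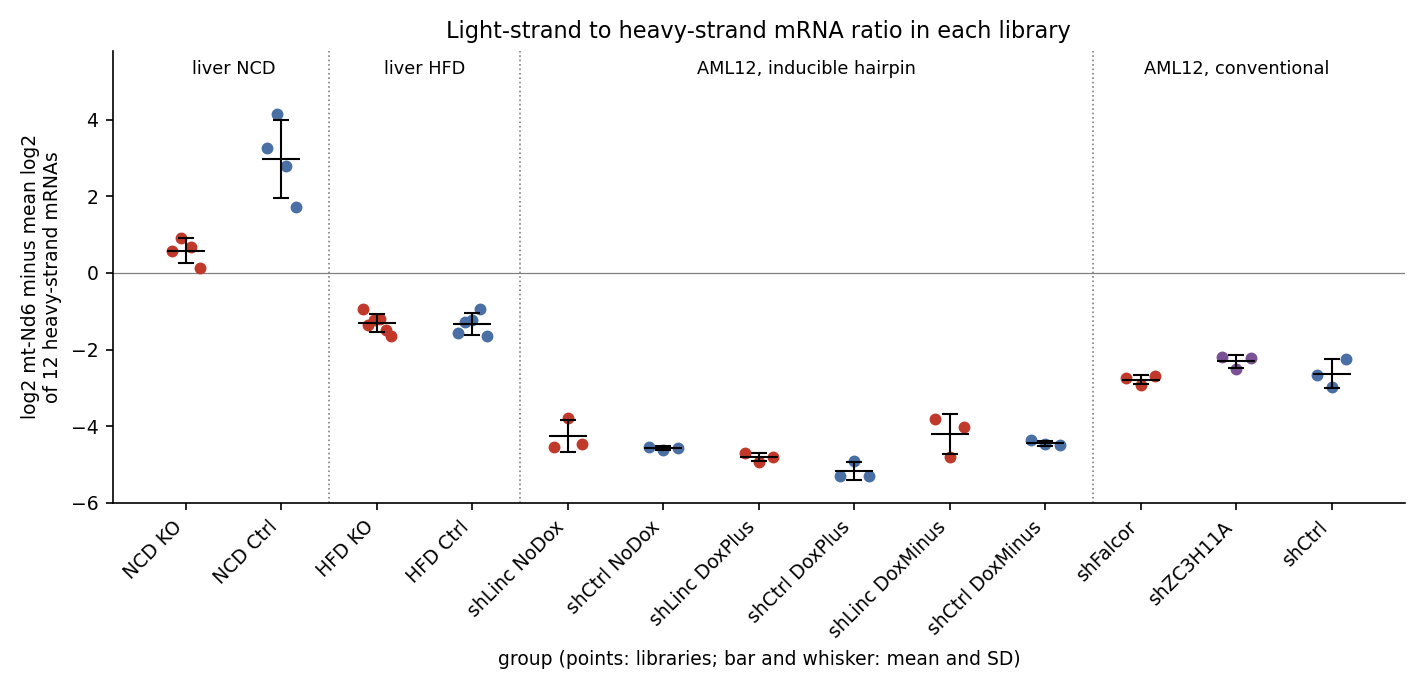
The log2 ratio of mt-Nd6 to the geometric mean of the 12 heavy-strand mRNAs (vertical axis) in every library (points) of the 13 groups, with mean and SD. NCD Ctrl livers lie highest (1.73 to 4.16), NCD KO livers at 0.14 to 0.91, and all other groups lie below 0.

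The calls in NCD rested on 7 of the 8 livers. Leaving out KO-1, KO-2, KO-4, KO-5, Ctrl-2, Ctrl-3 or Ctrl-4 left 0 heavy-strand mRNAs and 0 light-strand mRNAs called, and leaving out Ctrl-5 gave 9 higher and 1 lower. The directions of the 7 called mRNAs held in each of these fits, with log2 fold changes over 15 alternatives of 2.45 to 3.43 for mt-Atp8, 0.99 to 1.42 for mt-Nd2 and -1.42 to -0.97 for mt-Nd6 (adjusted p = 0.00799 to 0.111). Other features of the same libraries are given beside this. The rows of identical values that dominate these libraries held 23.9 to 33.8% of the total in KO and 35.5 to 47.9% in Ctrl livers, and the mt- rows together 2.53 to 4.72% in KO and 1.56 to 2.01% in Ctrl livers. Macrophage markers summed to 62.2 to 101 in KO and 88.5 to 172 in Ctrl livers, endothelial markers to 89.3 to 105 in KO and 75.1 to 106 in Ctrl livers, stellate markers to 62.8 to 85.4 in KO and 51.3 to 71.0 in Ctrl livers, and red cell markers to 1773 to 4892 in KO and 1875 to 3045 in Ctrl livers. The ranges of all 4 marker sums overlapped between KO and Ctrl livers. The part of all these features in the difference was not tested.

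Nuclear genes that act on the mitochondrial transcripts were mostly not called in NCD, where 5.98% of all genes tested were called. The counts below are near that share and do not set these genes apart. The share of all genes at an unadjusted p below 0.05 was not computed. Of 10 tested genes of mitochondrial DNA transcription and replication 0 were called by limma, with 1 at an unadjusted p below 0.05. Of 21 genes of mitochondrial RNA processing and stability 1 rose, Lrpprc, the mRNA-stabilising factor, at 0.40 on the log2 scale (adjusted p = 0.0440), and 7 had an unadjusted p below 0.05. Of 27 nuclear subunits that sit beside the mitochondrially encoded ones 1 fell, Cox6b1 of cytochrome c oxidase, at -0.42 (adjusted p = 0.0390). Of 5 regulators of mitochondrial biogenesis 0 were called by limma, with 2 at an unadjusted p below 0.05.

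In HFD livers no member was called between KO and Ctrl. Of 16 members tested, limma called 0 and 4 had an unadjusted p below 0.05, in a comparison that called 0.0486% of 6176 genes. The 12 heavy-strand mRNAs all had a negative log2 fold change, -0.51 to -0.07 with a median of -0.20, against 0.02 over all genes tested.

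Values of mt-Nd6 were 362, 367, 331, 354, 363 and 313 in KO livers, against 362, 435, 449, 465.9 and 300.2 in Ctrl livers, with a log2 fold change of -0.19 (SE 0.11, adjusted p = 0.527). The KO livers lay within the range of the Ctrl livers. For mt-Cytb the values were 1317, 1509.6, 1219, 1366, 1567 and 1620.3 in KO and 1795, 1699, 1809, 1868 and 1560.5 in Ctrl livers, with a log2 fold change of -0.29 (SE 0.09, adjusted p = 0.229). The lowest Ctrl liver was below the highest KO livers, and the groups of no member were apart. The gene with the highest fold change in NCD, mt-Atp8, had 2852, 3083, 2720.4, 2681, 3102 and 3927 in KO and 3061, 3449, 3651, 3324 and 2921 in Ctrl livers on HFD. The log2 strand ratio was -1.31 ± 0.25 in KO (n = 6) and -1.33 ± 0.28 in Ctrl livers (n = 5), a difference of 0.03. In the liver KO-6 the rows of identical values held 85.0% of the total, and the mt- rows held 1.30 to 3.63% in KO and 2.49 to 4.64% in Ctrl livers, and the part of this in the values was not tested. Of the nuclear genes listed above, limma called 0 of 7 for transcription and replication, 0 of 12 for RNA processing, 0 of 1 for biogenesis and 0 of 27 for respiratory chain subunits, with 1, 1, 0 and 4 at an unadjusted p below 0.05.

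The knockout effect on heavy-strand mRNAs differed between the diets. The difference of the 2 log2 fold changes, HFD minus NCD, was called lower for 9 of 12 heavy-strand mRNAs and for mt-Rnr2 and higher for none, where 7.13% of 6128 genes were called. It was -3.10 (SE 0.63, adjusted p = 0.0291) for mt-Atp8, -1.58 (SE 0.32, adjusted p = 0.0243) for mt-Nd4l and -1.52 (SE 0.31, adjusted p = 0.0259) for mt-Cytb, and -0.78 for mt-Co1, the smallest of those called. For mt-Nd6 it was 0.97 (SE 0.29, adjusted p = 0.0587) and not called. The diets were in separate tables, so diet and table cannot be told apart. Without NCD Ctrl-2, Ctrl-3, Ctrl-4 or KO-1 no heavy-strand mRNA was called, without NCD KO-5 there were 2, and without rescaling between libraries 1. Without the filter on low values the calls of mt-Nd1, mt-Atp8 and mt-Rnr2 were lost (adjusted p = 0.0732, 0.0674 and 0.0893). Without NCD Ctrl-5, mt-Nd6 was called as well. With the nuclear copies added, the difference was called lower for the other 3 as well, at -1.22 for mt-Co2 (adjusted p = 0.0314), -1.25 for mt-Co3 (adjusted p = 0.0335) and -1.08 for mt-Nd3 (adjusted p = 0.0236).

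In the inducible lines, the addition of doxycycline, a tetracycline antibiotic that also acts on mitochondrial ribosomes, came with higher rescaled levels of several heavy-strand mRNAs in both lines. Against NoDox, 7 of 12 rose and 2 fell in DoxPlus libraries of shLinc cells, where 74.2% of 9877 genes were called. In shCtrl cells 7 of 12 rose and 1 fell, where 66.5% were called. These shares of members are near the background. In shLinc cells the direction also depended on the scaling. Without rescaling 2 mt- mRNAs rose and 5 fell there, and with the rest-of-library scaling 1 rose and 5 fell. Comparisons of 1 line share libraries.

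The largest rises were in the ATP synthase mRNAs of shCtrl cells. In shLinc cells mt-Atp8 had 5341, 5522 and 5687 in NoDox, 7070.4, 6395 and 6496 in DoxPlus and 4447, 4405 and 4983 in DoxMinus libraries. In shCtrl cells it had 5314, 5686 and 5083 in NoDox, 9438, 9479 and 9906 in DoxPlus and 4998, 4681 and 4768 in DoxMinus libraries. DoxPlus libraries were the highest of their line, and shCtrl DoxPlus libraries stood above all others. The log2 fold change of DoxPlus against NoDox was 0.27 (SE 0.05, adjusted p = 0.000221) in shLinc cells and 0.84 (SE 0.05, adjusted p = 5.21e-10) in shCtrl cells. The value in shLinc cells rested on the scaling: it was 0.0546 without rescaling (adjusted p = 0.429) and 0.0189 with the rest-of-library scaling (adjusted p = 0.798).

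The same order held for mt-Atp6 and mt-Nd1. In shLinc cells mt-Atp6 had 7615, 7185 and 7640.4 in NoDox, 8201, 8672 and 8801 in DoxPlus and 5524, 5625 and 5734 in DoxMinus libraries, and in shCtrl cells 9032, 8116 and 7149.5 in NoDox, 11716, 11847 and 11878 in DoxPlus and 5595, 5766 and 5578 in DoxMinus libraries. In shLinc cells mt-Nd1, a complex I subunit, had 6346, 6078 and 6318 in NoDox, 8045, 8078 and 8119.8 in DoxPlus and 4551, 4402 and 4574 in DoxMinus libraries. In shCtrl cells mt-Nd1 had 8633, 8284 and 7438 in NoDox, 10455, 10669 and 10648 in DoxPlus and 5573, 5585 and 5564 in DoxMinus libraries. In these rescaled values each was highest with doxycycline and lowest in the restored state. Before rescaling, mt-Atp6 in shLinc cells had 8228, 8064 and 8455 in NoDox and 7799, 8190 and 8411 in DoxPlus libraries. The log2 fold changes with doxycycline were 0.19 for mt-Atp6 and 0.37 for mt-Nd1 in shLinc cells and 0.55 and 0.39 in shCtrl cells (adjusted p from 3.29e-07 to 0.00671).

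Other complex I mRNAs and the oxidase mRNAs differed between the lines. The subunit mt-Nd2 had a log2 fold change with doxycycline of 0.20 (SE 0.04, adjusted p = 0.000476) in shLinc cells and of -0.36 (SE 0.04, adjusted p = 1.70e-06) in shCtrl cells. For mt-Co1 it was -0.04 (adjusted p = 0.309) in shLinc cells and 0.23 (SE 0.03, adjusted p = 4.06e-06) in shCtrl cells. In shLinc cells mt-Co2 and mt-Co3 fell, at -0.46 and -0.34. The small rRNA mt-Rnr1 had a log2 fold change of 0.17 (SE 0.07, adjusted p = 0.0318) in shLinc cells and -0.64 (SE 0.07, adjusted p = 3.50e-07) in shCtrl cells. The rises of mt-Nd2, mt-Atp6 and mt-Rnr1 in shLinc cells also rested on the scaling, which moved the median of all genes by -0.20 or -0.24: without rescaling or with the rest-of-library scaling the 3 values lay between -0.0792 and -0.0099, and 2 or 1 mt- mRNAs rose and 5 fell in shLinc cells. The calls of mt-Nd4l and mt-Nd4 were lost under both (adjusted p = 0.0590 to 0.335), and that of mt-Cytb under the rest-of-library scaling (0.380). The call of mt-Rnr1 in shLinc cells was also lost without any 1 of shLinc NoDox replicates 2 and 3 and DoxPlus replicates 1, 2 and 3 (adjusted p = 0.0582 to 0.127). With its copy added, mt-Nd3 rose in shLinc cells (0.57, against 0.12 in its own row), and in shCtrl cells it had 0.20 (adjusted p = 0.0535), against -0.37, and mt-Co2 had 0.02, against -0.11. With only the groups compared in the fit, mt-Nd4, mt-Cytb and mt-Rnr2 were not called in shCtrl cells (adjusted p = 0.0515, 0.139 and 0.0548). Without shCtrl NoDox replicate 1 or DoxPlus replicate 1 the number that fell in shCtrl cells was 2, and without NoDox replicate 3 it was 4.

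In the restored state, heavy-strand mRNAs were lower than with doxycycline in both lines. In shLinc cells 9 of 12 fell and in shCtrl cells 12 of 12 fell, with 72.2% and 73.7% of all genes called. The falls in shLinc cells ran from -0.93 for mt-Nd3 to -0.22 for mt-Co1. The last was -0.0443 without rescaling and -0.0227 with the rest-of-library scaling (adjusted p = 0.257 and 0.591), under which 1 and 2 mt- mRNAs were higher. The falls in shCtrl cells ran from -1.07 for mt-Atp6 to -0.21 for mt-Co2, the last a call that was lost without shCtrl DoxPlus replicate 1 or DoxMinus replicate 3 (adjusted p = 0.0654 and 0.0661). Compared with NoDox, all 12 were lower in the restored state in shLinc cells (-0.81 for mt-Nd3 to -0.16 for mt-Nd5) and in shCtrl cells (-1.26 for mt-Nd3 to -0.15 for mt-Atp8), with 52.3% and 49.9% of all genes called, shares below that of the members. The calls were lost for mt-Nd4l in shLinc cells without NoDox replicate 1 (adjusted p = 0.0574), for mt-Nd5 in shLinc cells without any 1 of NoDox replicates 1 and 3 and DoxMinus replicates 1 and 3 (0.0504 to 0.103), and for mt-Atp8 in shCtrl cells without NoDox replicate 2 or DoxMinus replicate 2 or 3 (0.0674 to 0.108). With only the groups compared in the fit, mt-Co1 (0.0520) and mt-Atp8 (0.116) were not called in shCtrl cells. Together the mt- rows held 8.08 to 8.29%, 6.99 to 7.20% and 6.23 to 6.40% of the total in shLinc NoDox, DoxPlus and DoxMinus libraries, and 7.76 to 8.60%, 8.87 to 8.97% and 5.95 to 5.98% in the same states of shCtrl cells.

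**Figure D4:**
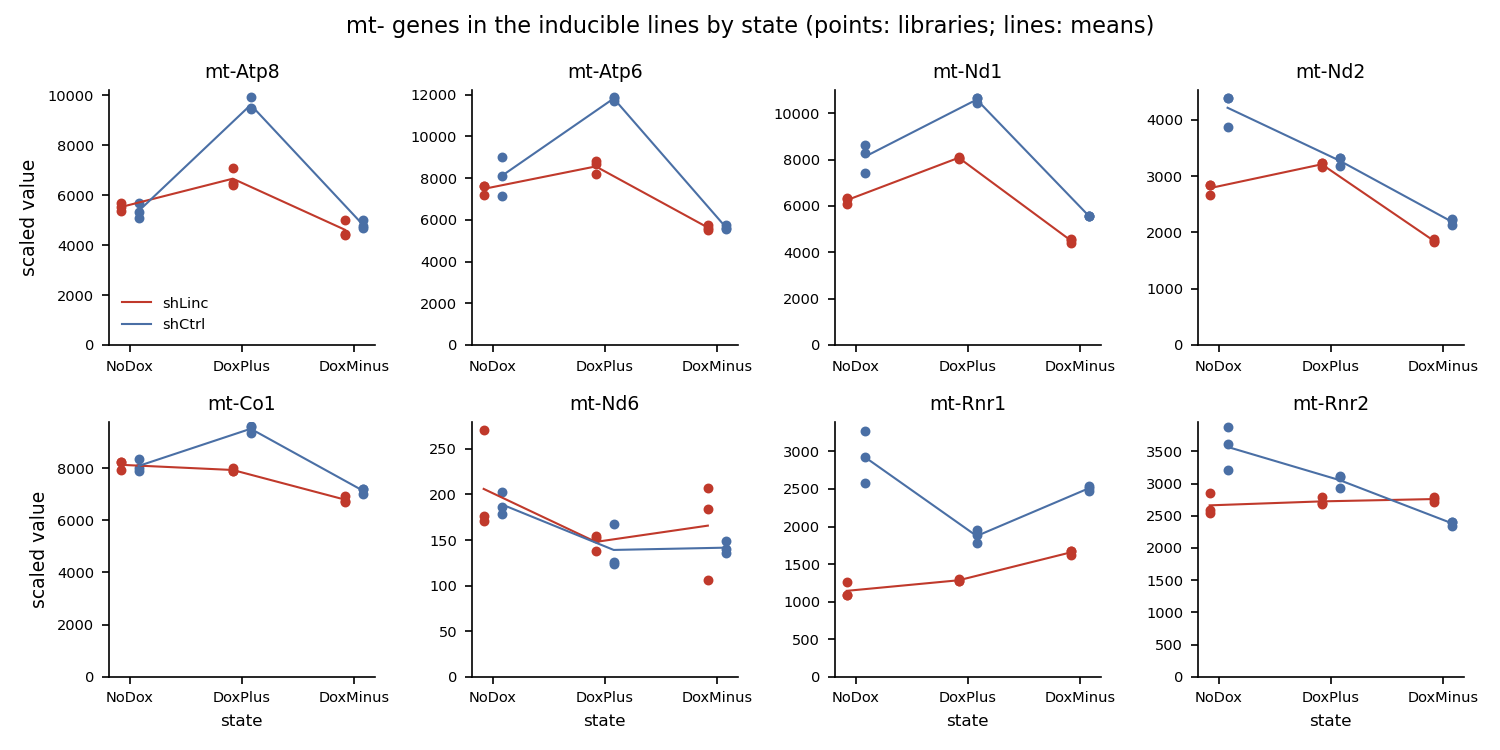
Rescaled value of 8 members (vertical axes) by state, in the order NoDox, DoxPlus and DoxMinus, with shLinc in red and shCtrl in blue. Points are libraries and lines join the group means of 3. mt-Atp8 and mt-Atp6 peak in shCtrl DoxPlus libraries, mt-Rnr1 stays lower in shLinc than in shCtrl cells in all 3 states, and mt-Nd6 lies between 106 and 271 throughout.

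The light-strand mRNA was not called in any comparison of the inducible lines. In shLinc cells mt-Nd6 had 171, 271 and 176 in NoDox, 155, 138 and 152 in DoxPlus and 207, 106 and 184 in DoxMinus libraries. In shCtrl cells it had 203, 186 and 179 in NoDox, 126, 168 and 123 in DoxPlus and 148, 141 and 136 in DoxMinus libraries. The highest and the lowest library were both from shLinc cells. Its log2 fold changes between states and between hairpins lay between -0.45 and 0.17. The log2 strand ratio was -4.27 ± 0.42 in NoDox, -4.81 ± 0.11 in DoxPlus and -4.21 ± 0.52 in DoxMinus libraries of shLinc cells, and -4.58 ± 0.05, -5.17 ± 0.23 and -4.44 ± 0.07 in those of shCtrl cells (SD, n = 3 each). DoxPlus libraries were below NoDox libraries without overlap in both lines, by -0.54 in shLinc and -0.59 in shCtrl cells. Without shLinc NoDox replicate 2 the difference in shLinc cells was -0.30, and with mt-Nd5 as the only denominator the differences were -0.39 in shLinc and -0.38 in shCtrl cells.

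The lines carrying the 2 hairpins were also compared before doxycycline. In NoDox libraries 7 of 12 heavy-strand mRNAs and both rRNAs were lower in shLinc cells and none was higher. The share of the mRNAs called in either direction was below the 65.3% of all genes. Of all genes, 35.1% were called lower and 30.2% higher, so the share of the mRNAs called lower was above that of all genes. The lowest log2 fold changes were -1.35 (SE 0.07, adjusted p = 3.13e-11) for mt-Rnr1, -0.79 (SE 0.20, adjusted p = 0.00354) for mt-Nd3 and -0.60 (SE 0.04, adjusted p = 4.59e-09) for mt-Nd2. The rRNA had 1260.5, 1084 and 1087 in shLinc and 3277, 2919 and 2584 in shCtrl cells, and mt-Nd2 had 2838, 2668 and 2848 in shLinc and 4391, 4382 and 3866 in shCtrl cells, both without overlap. The smaller values of mt-Co3 (-0.12), mt-Nd4l (-0.18) and mt-Cytb (-0.18) turned positive, at 0.0069 to 0.0887, without rescaling or with the rest-of-library scaling. The call of mt-Nd4 (-0.23) was lost under both (-0.0373 and -0.0237). These scalings moved the median of all genes by 0.18 or 0.19, and under either 4 mt- mRNAs were higher and 3 lower. With only the groups compared in the fit, mt-Co3 (adjusted p = 0.252) and mt-Nd4l (0.168) were not called. The call of mt-Co3 was lost without any 1 of shLinc NoDox replicates 1 and 2 and shCtrl NoDox replicates 1 and 2 (adjusted p = 0.0543 to 0.140), and that of mt-Nd4l without any 1 of replicates 2 and 3 of either line (0.0685 to 0.184).

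With doxycycline, 7 of 12 heavy-strand mRNAs and both rRNAs were lower in shLinc cells and none was higher. The share of the mRNAs called in either direction was near the 52.4% of all genes. Of all genes, 27% were called lower and 25.4% higher, so the share of the mRNAs called lower was above that of all genes. Of the 12 heavy-strand mRNAs, 10 had groups that did not overlap, a share that was not computed over all genes. The ATP synthase mRNAs had the lowest values among the mRNAs, -0.53 (SE 0.05, adjusted p = 4.13e-07) for mt-Atp8 and -0.47 (SE 0.06, adjusted p = 4.98e-06) for mt-Atp6. The oxidase mRNA mt-Co1 had 8008, 7868 and 7900.1 in shLinc and 9338, 9571 and 9606 in shCtrl DoxPlus libraries, without overlap (-0.26, SE 0.03, adjusted p = 2.39e-06). With copies added, mt-Nd4 (-0.14 in its own row) was not called (-0.06, adjusted p = 0.286), and mt-Nd3 was (-0.23, adjusted p = 0.0387). The call of mt-Rnr2 (-0.16) was lost without any 1 of replicates 2 and 3 of either line (adjusted p = 0.0541 to 0.0683), and that of mt-Nd4 without shCtrl DoxPlus replicate 3 (0.0559). In the restored state 2 heavy-strand mRNAs were higher in shLinc cells, mt-Nd5 at 0.22 and mt-Nd4 at 0.12, and 3 were lower, mt-Nd1 at -0.31, mt-Nd2 at -0.24 and mt-Cytb at -0.08, with 57.9% of all genes called. There mt-Rnr1 was lower (-0.60) and mt-Rnr2 higher (0.21). The call of mt-Nd4 was lost without shLinc DoxMinus replicate 3 or shCtrl DoxMinus replicate 1 or 2 (adjusted p = 0.0648, 0.0666 and 0.0580) and with the copies added (0.0887). That of mt-Cytb was lost without any 1 of shLinc DoxMinus replicates 1, 2 and 3 and shCtrl DoxMinus replicates 2 and 3 (0.0598 to 0.171), and mt-Cytb turned to 0.082 and 0.0957 without rescaling and with the rest-of-library scaling, under which 7 mt- mRNAs were higher, 1 was lower and mt-Nd2 was not called (adjusted p = 0.0703 and 0.148).

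The change of the hairpin difference with doxycycline was tested as an interaction. From NoDox to DoxPlus it was called lower for mt-Atp8 (-0.57, SE 0.08, adjusted p = 4.69e-06), mt-Atp6 (-0.36), mt-Co2 (-0.35), mt-Co1 (-0.27) and mt-Co3 (-0.26), with 64.9% of all genes called. It was called higher for mt-Nd2 (0.57, SE 0.06, adjusted p = 6.09e-07) and mt-Cytb (0.15), for both rRNAs (0.81 and 0.26) and for mt-Tp (1.63). The value of mt-Cytb turned to -0.0458 and -0.0861 without rescaling and with the rest-of-library scaling, and mt-Rnr2 was not called under them (0.0615 and 0.0212, adjusted p = 0.383 and 0.775). For DoxPlus against DoxMinus it was called lower for mt-Atp8 (-0.47), mt-Co3 (-0.47), mt-Atp6 (-0.46), mt-Nd5 (-0.31), mt-Nd4 (-0.26) and mt-Co1 (-0.19) and for mt-Rnr2 (-0.37), and higher for mt-Nd2 (0.21), with 60.5% of all genes called. Under those scalings 10 mRNAs were lower and 0 higher, and mt-Nd2 had 0.0493 and 0.0088. For the ATP synthase pair, mt-Co1 and mt-Co3, the difference of shLinc minus shCtrl cells was thus called lower with doxycycline than in both other states. This is not a fall within shLinc cells for the pair. In the rescaled values mt-Atp8 and mt-Atp6 were highest with doxycycline in both lines, and rose less in shLinc than in shCtrl cells. With copies added, the first interaction was also called for mt-Nd3 (0.36, adjusted p = 0.0186) and the second for mt-Co2 (-0.19, adjusted p = 0.0248).

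Beside these values, hepatocyte markers summed to 1744 to 1795, 768 to 781 and 2179 to 2252 in NoDox, DoxPlus and DoxMinus libraries of shLinc cells and to 1194 to 1221, 1091 to 1108 and 1337 to 1372 in those of shCtrl cells. Endothelial markers were at 0 in all of them. Whether the marker sum bears on the mt- values was not tested. The counts of nuclear genes are to be read against the share of all genes called, 74.2% in shLinc and 66.5% in shCtrl cells with doxycycline, and 65.3% in NoDox and 52.4% in DoxPlus libraries between the hairpins. Of 24 genes of mitochondrial RNA processing, 15 rose and 3 fell with doxycycline in shLinc cells, among them Tbrg4 (1.42), Fastkd5 (1.07) and Trmt10c (0.98), a subunit of the enzyme that cuts tRNA ends, and in shCtrl cells 14 rose and 4 fell, among them Lrpprc (0.70). Of 27 nuclear respiratory chain subunits 12 rose and 5 fell in shLinc cells, and 1 rose and 13 fell in shCtrl cells. In NoDox libraries 22 of the 27 were lower and 1 was higher in shLinc than in shCtrl cells, and of the 24 processing genes 11 were lower and 0 higher. In DoxPlus libraries 10 of the 27 were lower and 6 higher, and of the 24 processing genes 6 were lower and 7 higher.

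In the conventional lines, some heavy-strand mRNAs were higher and others lower in shFalcor cells. Relative to shCtrl, 2 of 12 rose and 3 fell, and mt-Nd6 fell (edgeR's quasi-likelihood test), with 51.5% of 11871 genes called, a share above that of the members. Without rescaling or with the rest-of-library scaling, which shifted the median of all genes by 0.15 or 0.12, 4 mt- mRNAs rose and 2 fell. Without shCtrl replicate 2, 1 rose, and without any 1 of shFalcor replicates 1, 2 and 3, 2 fell. Both knockdowns were compared with the same 3 shCtrl libraries. Zc3h11a itself was called lower in shFalcor than in shCtrl cells (log2 fold change -0.75, SE 0.24, adjusted p = 0.0243, same test). Falcor values were also lower in every shZC3H11A library than in every shCtrl library. The comparisons therefore do not keep the 2 targets separate.

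The most abundant of them per length, mt-Co1, had 15988, 15407 and 16659 CPM in shFalcor, 18416, 18442 and 19424 CPM in shZC3H11A and 24611, 23098 and 21065 CPM in shCtrl cells. The 3 groups did not overlap. The log2 fold change was -0.54 (SE 0.05, adjusted p = 2.39e-07) for shFalcor and -0.27 (SE 0.05, adjusted p = 0.000463) for shZC3H11A, each against shCtrl, and -0.26 (SE 0.05, adjusted p = 0.000461) for shFalcor against shZC3H11A, a last call that was lost without rescaling (-0.10, adjusted p = 0.111). Gm29216, a copy of a stretch of mt-Co1, had 595, 492.9 and 158 CPM in shFalcor, 5.92, 0 and 43.3 CPM in shZC3H11A and 4.4, 0 and 4.91 CPM in shCtrl cells.

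The bicistronic pair of complex I went the other way in shFalcor cells. There mt-Nd4 had 1390.0, 1345 and 1463 CPM, against 791, 860.0 and 950.2 CPM in shZC3H11A and 1245, 1084 and 1064 CPM in shCtrl cells. Its values in shFalcor cells were above, and those in shZC3H11A cells below, all shCtrl values. The log2 fold change was 0.29 (SE 0.07, adjusted p = 0.00237) for shFalcor and -0.37 (SE 0.07, adjusted p = 0.000347) for shZC3H11A against shCtrl, and 0.66 (SE 0.07, adjusted p = 3.89e-07) between the knockdowns. For mt-Nd4l it was 0.28 (SE 0.09, adjusted p = 0.0138) for shFalcor against shCtrl, a call lost without shCtrl replicate 2 (adjusted p = 0.0519), and -0.18 (SE 0.09, adjusted p = 0.123) for shZC3H11A.

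The complex I mRNA mt-Nd5 fell in both knockdowns. It had 1990.5, 1962 and 2214 CPM in shFalcor, 1824, 1981 and 2019 CPM in shZC3H11A and 3026, 2769 and 2299 CPM in shCtrl cells, with log2 fold changes of -0.41 (SE 0.09, adjusted p = 0.00121) and -0.46 (SE 0.09, adjusted p = 0.000574) against shCtrl. Between the knockdowns it was 0.05 (adjusted p = 0.677). In shZC3H11A cells mt-Nd1 fell as well (-0.43, SE 0.07, adjusted p = 4.40e-05), which made 4 of 12 that fell and none that rose, with 48.5% of all genes called. Without shZC3H11A replicate 3 the number that fell was 7.

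For mt-Atp6 the result depended on the nuclear copy. The row had 1313, 1180.2 and 1224 CPM in shFalcor, 1219, 1886 and 1209 CPM in shZC3H11A and 2104, 2262 and 1656 CPM in shCtrl cells, and fell in shFalcor cells (-0.71, SE 0.21, adjusted p = 0.0281). The copy Gm10925 had 1657, 1685 and 1933 CPM in shFalcor, 1126, 816 and 1472 CPM in shZC3H11A and 1601, 955 and 1123 CPM in shCtrl cells. With both together, mt-Atp6 had -0.13 in shFalcor cells and was not called (adjusted p = 0.263), while mt-Co2 (-0.29) and mt-Co3 (-0.20) were. In shZC3H11A cells the same addition made 7 heavy-strand mRNAs lower, with mt-Co2 at -0.48, mt-Co3 at -0.36 and mt-Atp6 at -0.31. There mt-Nd3, not called in either case, had 0.30 in its own row and -0.14 with its copy. The call of mt-Atp6 alone was also lost without any 1 of shFalcor replicates 1, 2 and 3 and shCtrl replicates 1 and 2 (adjusted p = 0.0629 to 0.0832), and without rescaling, with the rest-of-library scaling or without the filter (0.0569 to 0.0738).

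The light-strand mRNA mt-Nd6 had 74.4, 72.5 and 71.2 CPM in shFalcor, 91.4, 92.4 and 113 CPM in shZC3H11A and 91.5, 74.2 and 113 CPM in shCtrl cells. The shFalcor libraries lay close together, and shCtrl replicate 2 lay within their range while the other two shCtrl libraries were above it. The log2 fold change was -0.38 (SE 0.13, adjusted p = 0.0235) for shFalcor and 0.10 (SE 0.13, adjusted p = 0.527) for shZC3H11A against shCtrl, and -0.48 (SE 0.13, adjusted p = 0.00526) between the knockdowns. The call against shCtrl was lost without rescaling (-0.23, adjusted p = 0.147), with the rest-of-library scaling (-0.26, adjusted p = 0.105) and without any 1 of shFalcor replicates 1, 2 and 3 and shCtrl replicate 3 (adjusted p = 0.0598 to 0.103), where without the last the value was -0.22. The log2 strand ratio was -2.79 ± 0.12 in shFalcor, -2.31 ± 0.18 in shZC3H11A and -2.63 ± 0.37 in shCtrl cells (SD, n = 3 each), and shFalcor and shZC3H11A libraries did not overlap.

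Set directly against shZC3H11A, shFalcor cells had 5 higher heavy-strand mRNAs (mt-Nd4, mt-Nd4l, mt-Nd1 at 0.32, mt-Nd2 at 0.21 and mt-Cytb at 0.20) and 1 lower (mt-Co1), with 56.9% of all genes called. With copies added, mt-Co2 (0.19) and mt-Co3 (0.16) were called higher too, while the own row of mt-Co2 had a negative value that was not called. Neither mt-Atp6 (0.18, against -0.25 in its own row) nor mt-Nd3 (0.08, against -0.41) was called. The number higher was 3 without shFalcor replicate 1, shZC3H11A replicate 1 or shZC3H11A replicate 2. The call of mt-Nd2 was lost without any 1 of shFalcor replicates 1 and 3 and shZC3H11A replicates 1 and 2 (adjusted p = 0.108 to 0.206), and that of mt-Cytb without shFalcor replicate 1 or shZC3H11A replicate 1 or 2 (0.0627 to 0.147). The large rRNA had 40618, 41008 and 30319 CPM in shFalcor, 46648, 57920 and 49401 CPM in shZC3H11A and 46845, 58485 and 47238 CPM in shCtrl cells, a log2 fold change of -0.50 (SE 0.17, adjusted p = 0.0390) between the knockdowns. That call was lost without shFalcor replicate 1 or 3 or shZC3H11A replicate 2 or 3 (adjusted p = 0.0558 to 0.0845), and under both other scalings, without the filter and with only the groups compared (0.0758 to 0.117), with a value of -0.34 without rescaling. Against shCtrl, mt-Rnr2 had -0.46 in shFalcor cells (adjusted p = 0.0535).

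**Figure D5:**
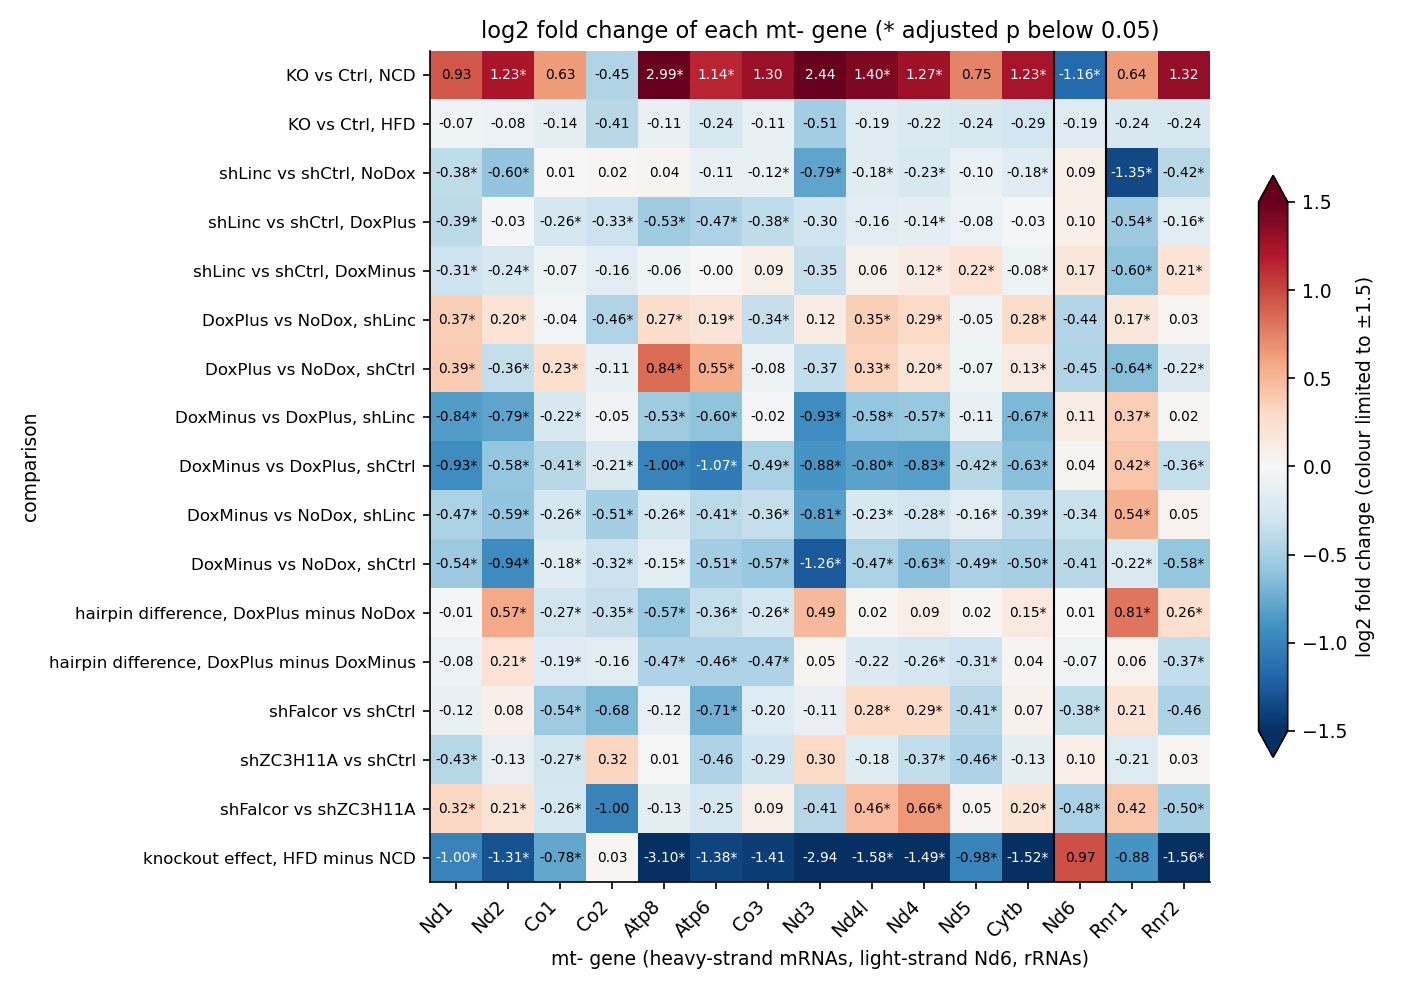
Log2 fold change (colour, limited to ±1.5) of 15 members (columns) in the 17 comparisons (rows), with a star where the adjusted p was below 0.05. The heavy-strand mRNAs other than mt-Co2 are positive in NCD, all 12 are negative in HFD, in shLinc against shCtrl with doxycycline and in the restored state against DoxPlus or NoDox in both lines, and signs are mixed in the other cell line comparisons, and mt-Nd6 carries a star in NCD, in shFalcor against shCtrl and in shFalcor against shZC3H11A.

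Among the nuclear factors of mitochondrial RNA, Lrpprc had a log2 fold change of 0.93 in shFalcor and -1.92 in shZC3H11A cells against shCtrl (adjusted p = 5.99e-08 in shZC3H11A). Of 26 processing genes 8 rose and 3 fell in shFalcor cells and 6 rose and 2 fell in shZC3H11A cells, shares below the 51.5% and 48.5% of all genes called. Rexo2, an exonuclease that clears short mitochondrial RNAs, was at 1.00 in shFalcor cells. Of 16 genes of transcription and replication, 4 rose and 2 fell in shFalcor and 2 rose and 0 fell in shZC3H11A cells, among them the helicase Twnk (0.54 in shFalcor and 0.36 in shZC3H11A cells) and, in shZC3H11A cells, the polymerase Polrmt (0.33). Of 27 nuclear respiratory chain subunits 11 rose and 3 fell in shFalcor cells and 14 rose and 4 fell in shZC3H11A cells. Of 6 regulators of mitochondrial biogenesis 3 rose and 0 fell in shFalcor cells, and 0 rose and 3 fell in shZC3H11A cells. Hepatocyte markers summed to 374 to 447 CPM in shFalcor, 1223 to 1563 CPM in shZC3H11A and 1074 to 1208 CPM in shCtrl cells, and macrophage markers to 48.6 to 51.5 CPM in shFalcor, 5.23 to 8.15 CPM in shZC3H11A and 3.44 to 5.32 CPM in shCtrl cells. Of the 5 macrophage markers, 3 were at 0 in all shFalcor libraries. Cd68 was the only 1 tested (log2 fold change 3.65 against shCtrl), so that sum does not stand for the list. The part of these marker sums in the mt- values was not tested.

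The tRNAs gave little signal in any table. Of 22 tRNA rows, 5 were above 0 in some library of NCD, 4 in HFD, 6 in the inducible lines and 5 in the conventional lines. Only mt-Tp had a mean of at least 3 in the 3 score tables and none did in the conventional table. The highest deposited value of any tRNA was 20 in NCD, 25 in HFD, 46 in the inducible lines and 1 count in the conventional lines. Among the tests of mt-Tp, the fall with doxycycline in shCtrl cells was called (-1.73, SE 0.45, adjusted p = 0.00429).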

How the data were processed

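RNA sequencing values of 46 libraries were deposited as 4 tables. Per the submitters' processing notes, kallisto, DESeq2 and mm10 were used, with no version or role given. The conventional table holds deposited counts. The other 3 hold deposited whole numbers with near-constant totals, a scaled unit that no source names, treated as a score of unknown depth. The tests planned for counts were therefore replaced there by limma-trend (limma 3.58.1 in R 4.3.3) on log2(value + 1), after trimmed mean of M-values (TMM) scaling and a minimum mean of 3, which understates the change of low genes. Counts were tested with edgeR 4.0.16 (quasi-likelihood, filterByExpr, TMM). All groups of 1 table shared 1 fit, and the diet difference used the 2 within-table estimates with Welch-Satterthwaite degrees of freedom. P-values were adjusted by Benjamini-Hochberg over all genes tested and called below 0.05. Shares over all genes were not computed for an unadjusted p below 0.05 or for groups that did not overlap. Both models were tested on simulated data whose spread was set in advance. Of 2-fold changes, 38% were called with the NCD design, 56% with HFD, 17% with the inducible and 33% with the conventional design. Of 1.5-fold changes, 4%, 10%, 3% and 0% were called in the same order, so most changes of that size went uncalled in the simulation. The simulated spread was not taken from these data, and only the groups of 1 comparison per table were simulated. The shares therefore do not give the share of changes missed here. In the inducible NoDox comparison of hairpins 65.3% of genes were called, at a median absolute log2 fold change of 0.295 over all genes. Of the liver control columns, 4 carry no replicate number and are named by column. The members and gene lists were chosen with earlier results of these data known. All mt- mRNAs and rRNAs could be named, and of each other list up to 4 called genes with the smallest p. Alternatives were other scalings and pseudocounts (0.5 and 5), no filter, DESeq2 1.42.0 for counts, only the groups compared, a replicate block and leaving out each library, and, chosen after seeing the data, nuclear copies added to their mt- row.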

Additional observations from a re-analysis of the deposited data

Results flagged for a closer look

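Within groups of 4 to 6 livers, single libraries stood apart for some members. Among the 64 groups of values examined, chance alone marks about 1 in 20. In NCD, the KO liver KO-5 was far above the other 3 for mt-Nd2 (717.1), mt-Co2 (491.0), mt-Atp8 (2224), mt-Nd4l (3642) and mt-Cytb (2262). In HFD KO livers, KO-6 was highest for mt-Atp8 (3927) and KO-5 for mt-Nd3 (196.6). In HFD Ctrl livers, Ctrl-1 was lowest for mt-Nd2 (751.1), Ctrl-6 lowest for mt-Atp6 (2567), Ctrl-4 highest for mt-Nd5 (853.1) and Ctrl-5 highest for mt-Rnr2 (5139).

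The same contrast also gave different values in different settings. By the test of the difference itself, the hairpin effect changed between DoxPlus and NoDox for 7 of 12 heavy-strand mRNAs and between DoxPlus and DoxMinus for 7. Of all genes, 64.9% and 60.5% were called there, so these counts do not set the members apart. The knockout effect differed between HFD and NCD for 9 of 12, with 7.13% of all genes called. That count was 0 without any 1 of NCD Ctrl-2, Ctrl-3, Ctrl-4 and KO-1, and 1 without rescaling.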

How the results depend on the processing

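Of the counts of called mt- mRNAs, 251 stayed within 1.5 times under another setting and 37 did not, and of those with a library left out 234 did and 34 did not. Of the strand ratio differences, 64 stayed within the spread between replicates under another setting and 6 did not. With a library left out 91 did and 0 did not, an outcome fixed in advance. Leaving out 1 library cannot shift a group mean here by the whole spread between replicates, so that count carries no information. For NCD KO against Ctrl, the number of mt- mRNAs higher was 10 without rescaling, 3 with median-of-ratios scaling and 1 without a filter, and 0 to 9 with a library left out. The number lower was 0 without a filter and with the rest-of-library scaling, and 0 to 1 with a library left out. For the diet difference, 1 mt- mRNA was lower without rescaling and 0 to 10 with a library left out, and mt-Nd6 gave 0 to 1 higher.

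In the inducible lines, without rescaling and with the rest-of-library scaling in turn, NoDox shLinc against shCtrl gave 4 and 4 higher and 3 and 3 lower, and DoxMinus 7 and 7 higher and 1 and 1 lower. DoxMinus also gave 1 higher with copies added, 5 lower with only the groups compared and 1 to 3 higher with a library left out. DoxPlus against NoDox gave 2 and 1 higher and 5 and 5 lower in shLinc, and 2 and 2 lower in shCtrl cells, where only the groups compared gave 2 and leaving out a library 1 to 4. DoxMinus against DoxPlus gave 1 and 2 higher in shLinc cells. The interaction with NoDox gave 1 and 1 higher, and that with DoxMinus 0 and 0 higher and 10 and 10 lower.

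In the conventional lines shFalcor against shCtrl gave 4 and 4 higher and 2 and 2 lower under the same scalings, and 1 to 2 and 2 to 3 with a library left out. shZC3H11A against shCtrl gave 7 lower with copies added and 4 to 7 with a library left out, and shFalcor against shZC3H11A 3 to 5 higher with a library left out and 1 lower without rescaling. The strand ratio moved to -0.38 for DoxPlus against NoDox in shCtrl, 0.22 and 0.46 for DoxMinus against DoxPlus in shLinc and shCtrl, and 0.0734 for DoxMinus against NoDox in shCtrl cells with mt-Nd5 as denominator, to 0.0636 for the last with summed values, and to -0.65 for shFalcor against shZC3H11A with copies added.

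The cause of these moves was not tested. The directions that turned did so under 2 scalings. Without rescaling and with the rest-of-library scaling, NoDox shLinc against shCtrl gave 0.0751 and 0.0887 for mt-Co3, 0.0108 and 0.0244 for mt-Nd4l and 0.0069 and 0.0205 for mt-Cytb, and DoxMinus 0.082 and 0.0957 for mt-Cytb. DoxPlus against NoDox in shLinc cells gave -0.0099 and -0.0456 for mt-Nd2, -0.0208 and -0.0565 for mt-Atp6 and -0.0435 and -0.0792 for mt-Rnr1, and the interaction with NoDox -0.0458 and -0.0861 for mt-Cytb. Beside these, the median of all genes shifted by 0.18 and 0.19, 0.15 and 0.17, -0.20 and -0.24, and -0.19 and -0.22 in the same order of comparisons.

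Replicate numbers did not pair the cell line libraries, whose correlations lay between -0.109 and 0.141 with not all above 0.1 in any comparison. With a replicate block, 6 mt- mRNAs were lower in shLinc NoDox, 8 in DoxPlus and 2 in DoxMinus libraries, and no count of mt- mRNAs moved by over 1.5 times. No paired analysis was possible in liver because 4 control columns carry no number. Depth is unknown in the score tables and low values are rounded.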
